A study of Mus musculus with 24 samples.

Results

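Lungs that had been irradiated and given 2 inhibitors were compared with untreated lungs, 24 days after irradiation, to describe what still differed from the untreated level under both drugs. The 6 arrays of that comparison, of 24 in the series, were taken by their titles: 4 hold irradiated dual inhibition (2 of IR+Ly+Imatinib and 2 of IR+Ly+Su, with IR for irradiation) and 2 hold untreated lung. The 4 unirradiated arrays with the same drug pairs (2 of Ly+Imatinib, 2 of Ly+Su) and the 2 arrays of irradiation without drug (IR) were used to place the differences. The labels call the 2 samples of each group biological replicates, and give mouse lung, shock-frozen and homogenised as whole tissue, with no strain, sex, age, radiation dose, drug dose or timing of the drugs. The series is titled after the joint blocking of TGF-β and PDGF signalling in lung fibrosis that radiation induces, and the labels do not spell out Ly or Su or say which pathway either blocks. Imatinib is known to inhibit the ABL and KIT kinases and the PDGF receptors.

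As background, ionising radiation breaks DNA, and p53 answers the damage by raising genes that halt the cell cycle, such as Cdkn1a, and secreted factors such as Gdf15. Weeks later the irradiated mouse lung is known to hold inflammatory macrophages and proliferating cells, and fibroblasts then lay down collagen. TGF-β, read by the kinase receptors Tgfbr1 and Tgfbr2, drives matrix genes in fibroblasts, and PDGF, read by Pdgfra and Pdgfrb, drives their growth and migration.

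Each value below is a probe's signal divided by the 75th percentile of its array, so that 1 is that percentile, and lists of array values run IR+Ly+Imatinib 1 and 2, then IR+Ly+Su 1 and 2. Values of different probes cannot be set against each other. Differences are on the log2 scale, with the standard error of the fit, and come from limma fitted to the 12 groups of the series, with p-values adjusted by Benjamini-Hochberg over 20409 genes and called at 0.05. Each slide held 4 arrays. The irradiated dual inhibition groups shared 1 slide and the untreated arrays another, which they shared with Ly. Slide and group therefore cannot be told apart in any comparison here except that of the 2 drug pairs with each other. Spots well above background made up 68.6% to 78.5% on the irradiated dual inhibition arrays, against 62.2% and 63.5% on the untreated ones. IR+Ly+Imatinib 1 stood apart: it held 330 outlier spots, against at most 80 on any other array, and correlated with its replicate across genes at r = 0.975, where IR+Ly+Imatinib 2 correlated with the IR+Ly+Su arrays at 0.992 and 0.993. Lung markers (Sftpc, Sftpb, Sftpa1, Scgb1a1, Ager, Foxj1 and Cdh5) were above background on all 24 arrays.

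In irradiated dual inhibition against untreated, 2461 genes were higher and 1767 lower, 20.7% of the genes tested (12.1% higher and 8.66% lower). Among genes above background on all 6 arrays, the highest were Tfap2e, a transcription factor of the AP-2 family, Col2a1, the collagen of cartilage, and Pimreg, a mitotic regulator. Nppa, the atrial natriuretic peptide, was among the lowest of them. Of the called genes, 1439 differed by more than 1 log2 unit, and the median over all genes tested was 0.04. The count fell to 1626 without untreated 1, 2250 without untreated 2 and 2808 without IR+Ly+Su 1, and reached 5694 without IR 1, which entered only the shared estimate of spread. With normexp background correction in place of the deposited processed signal, 215 genes were called, 101 higher and 114 lower, and the median of all genes was -0.30. With the test limited to genes above background on all 24 arrays, 1308 were higher and 1765 lower, so that most called genes were then lower. Medians of gene lists under normexp are given relative to the median of all genes, and genes that normexp turned the other way are named with their values. Such genes were judged by the sign of their own value, not relative to that median. Some lower genes that kept their sign therefore lay above the median of all genes, such as Aqp5 (-0.088), Cav1 (-0.11) and Nkx2-1 (-0.062). Cthrc1 (-0.083), Cxcl9 (-0.068) and Cyp51 (-0.055), named as turned lower, also lay above it.

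The same difference can be laid out as 2 steps, unirradiated dual inhibition against untreated and irradiated against unirradiated dual inhibition. The first step passed the test for 440 higher and 172 lower genes (3.0% in all, 2.16% and 0.843%), the second for 1534 higher and 1374 lower genes (14.2% in all, 7.52% and 6.73%). Over the 2461 higher genes the median difference of 1.03 divided into 0.46 in the first step and 0.44 in the second. Over the 1767 lower genes it was -0.50, made of -0.20 and -0.30. The steps share arrays with the whole difference, and the medians describe genes chosen by that difference. The count of the first step was 184 without Ly+Imatinib 1, 232 without untreated 2, 265 without Ly+Su 1, 356 without untreated 1 and 1224 without IR 1. For the second step it was 1239 without IR+Ly+Su 1 and 4375 without IR 1, and 5 other arrays also moved it by more than 1.5 times, to between 1409 and 1676 (IR+Ly+Imatinib 1, IR+Ly+Su 2, Ly+Imatinib 1 and 2 and Ly+Su 2, left out in turn). IR against untreated, which shares the untreated arrays, had 1492 higher and 1407 lower genes (14.2% in all, 7.31% and 6.89%).

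**Figure D1:**
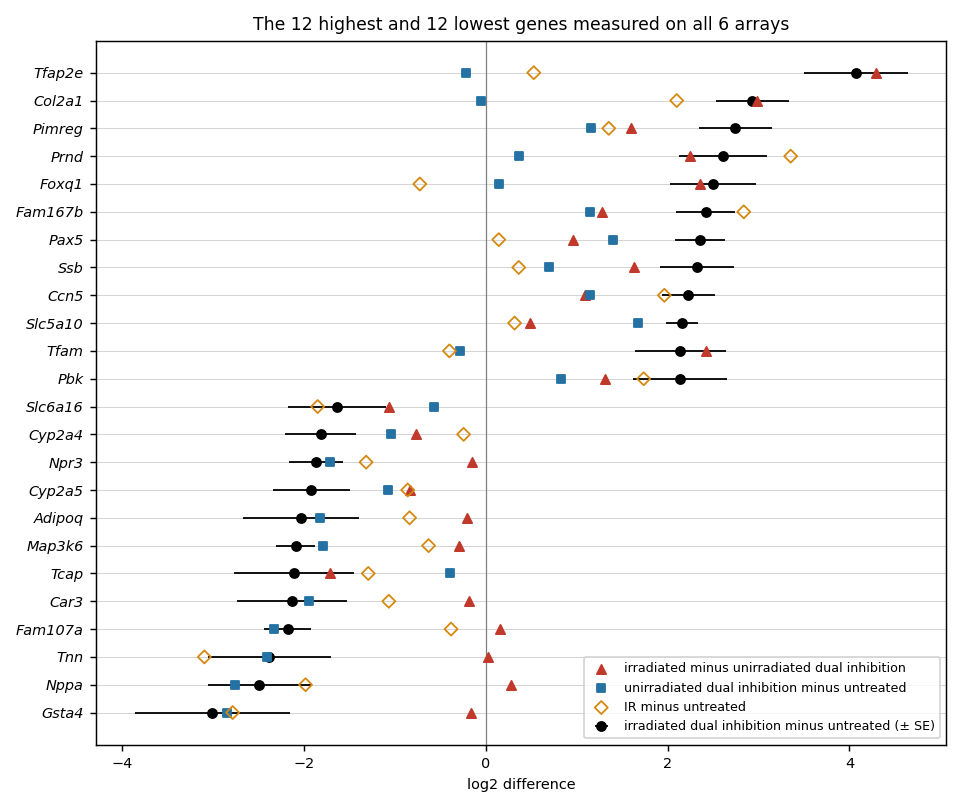
Log2 differences of the genes with the largest differences between irradiated dual inhibition and untreated lung among genes above background on all 6 arrays, with the differences of irradiated from unirradiated dual inhibition, of unirradiated dual inhibition from untreated and of IR from untreated as separate symbols and the standard error of the fit as the bar on the first. Tfap2e, Col2a1, Foxq1 and Tfam differed mainly between irradiated and unirradiated dual inhibition, and Nppa, Map3k6 and Npr3 mainly between unirradiated dual inhibition and untreated.

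Tfap2e had 22.8, 41.2, 37.8 and 10.3 on the irradiated dual inhibition arrays, 1.35, 1.64, 1.4 and 0.805 on the unirradiated ones (Ly+Imatinib 1 and 2, then Ly+Su 1 and 2), and 1.33 and 1.61 on the untreated arrays. All 4 irradiated arrays lay above the other 6, with a difference from untreated of 4.07 ± 0.57 (adjusted p = 0.000469). Irradiation without drug gave 1.03 and 4.31, on IR 1 and 2. Foxq1, a forkhead transcription factor, had 1.9, 3.21, 3.28 and 1.44 in irradiated dual inhibition, against 0.379 and 0.444 in untreated lung, and differed by 2.50 ± 0.47 (adjusted p = 0.00286). Tfam, which packages and transcribes mitochondrial DNA, differed by 2.14 ± 0.50 (adjusted p = 0.00883) through 1 of its 3 probes. The 2 other probes of Tfam differed by 0.13 and 0.13 (lowest adjusted p = 0.377). Tfap2e, Foxq1 and Tfam were all lowest among the 4 irradiated arrays on IR+Ly+Su 2, and lowest among the unirradiated arrays on Ly+Su 2.

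Col2a1 had 2.08, 1.1, 0.891 and 0.888 in irradiated dual inhibition, 0.121, 0.183, 0.15 and 0.14 in unirradiated dual inhibition and 0.2 and 0.115 in untreated lung. The 4 irradiated arrays lay above all 6 others, and the difference from untreated was 2.93 ± 0.40 (adjusted p = 0.000396). Prnd, which encodes the prion-like protein doppel, differed by 2.61 ± 0.48, with 1.64, 2.52, 0.369 and 0.674 against 0.163 and 0.168, and was higher on both IR+Ly+Imatinib arrays than on either IR+Ly+Su array. Fam167b showed the same order between the pairs, at 0.598, 0.66, 0.156 and 0.234 against 0.0716 and 0.0587. Ccn5, a matricellular protein of the CCN family, had 6.84, 4.32, 4.67 and 3.13 in irradiated dual inhibition, 2.61, 2.56, 1.85 and 1.72 in unirradiated dual inhibition and 0.871 and 1.09 in untreated lung. It rose in both steps, by 1.14 ± 0.29 with the drugs and by 1.09 ± 0.24 between irradiated and unirradiated dual inhibition. Slc5a10, a sugar transporter, rose by 1.67 ± 0.18 and 0.49 ± 0.15 in the same steps, and normexp turned its difference from untreated to -0.28. Ssb, the La RNA-binding protein, was 2.32 ± 0.41 higher than untreated (adjusted p = 0.00186), with 0.318, 0.495, 0.505 and 0.571 against 0.0487 and 0.174.

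Some genes were above background on all 4 irradiated dual inhibition arrays and on neither untreated array, so that only a lower bound of the fold can be given, computed against the lowest level that counted as above background. Cpa3, the carboxypeptidase of mast cell granules, was at least 6.99-fold higher than untreated (adjusted p = 0.0187), with 0.0973, 0.743, 0.0745 and 0.293. Dlk1, an imprinted transmembrane protein of the Notch ligand family, was at least 2.95-fold higher, and its irradiated arrays ranged widely, at 0.073, 0.34, 0.0163 and 0.125. Gdf6, a ligand of the BMP branch of the TGF-β family, was at least 2.3-fold higher, Hpgds, a prostaglandin D synthase of blood cells, at least 2.71-fold, Pate5 at least 2.56-fold and Ankrd34b at least 1.87-fold. Cpa3, Dlk1, Gdf6, Ankrd34b and Hpgds also passed in irradiated against unirradiated dual inhibition. Pate5 did not, and its unirradiated dual inhibition arrays stood at 0.0759, 0.0714, 0.0683 and 0.0589, beside 0.0798, 0.0469, 0.0819 and 0.093 in irradiated dual inhibition. Under normexp Dlk1, Gdf6, Hpgds, Pate5 and Ankrd34b turned lower, at -0.43, -0.86, -0.83, -0.86 and -0.98. Cpa3 kept its sign there but shrank to 0.13 and was not called by limma (adjusted p = 0.919). Of the called genes with a symbol whose arrays did not overlap, 0 met the mirror condition, above background on both untreated arrays and on no irradiated dual inhibition array. The level that counted as above background was not the same on all arrays. Before scaling, the lowest such signal was 32.5, 12.2, 11.5 and 13.1 in irradiated dual inhibition, against 31.3 and 17.6 in untreated lung. The part of this level in the counts of both conditions was not tested.

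Nppa fell to 0.0452, 0.0596, 0.061 and 0.145 in irradiated dual inhibition, against 0.446 and 0.347 in untreated lung, a difference of -2.49 ± 0.56 (adjusted p = 0.00748), and with the drugs without irradiation it had 0.0491, 0.0594, 0.0537 and 0.0716. Npr3, the clearance receptor for natriuretic peptides, had 2.26, 1.76, 2.64 and 2.2, against 8.05 and 7.93 in untreated lung, and 1.78, 2.39, 3 and 2.75 with the drugs alone. Both irradiated and unirradiated dual inhibition arrays of Npr3 lay below the untreated ones, and the step between them was -0.15 ± 0.24 (adjusted p = 0.717). Map3k6, a stress-activated kinase, had 2.2, 2.16, 2.55 and 2.21 against 11.7 and 8.04, a difference of -2.09 ± 0.22. Fam107a, an actin-binding protein, fell by 2.18 on the log2 scale, with 0.492, 0.263, 0.223 and 0.27 against 1.72 and 1.06. Cyp2a5 and Cyp2a4 are near-identical cytochrome P450 genes whose probes may share transcripts, and both fell, by 1.92 and 1.82. Slc6a16, a transporter of the neurotransmitter transporter family, fell by 1.64, with 0.0267, 0.0328, 0.0358 and 0.0321 against 0.154 and 0.0628. In 2 of the lowest genes a single untreated array carried the level: Gsta4, a glutathione transferase, had 0.981, 1.12, 1.11 and 1.2 in irradiated dual inhibition, against 52.8 and 1.49 in untreated lung, and Tnn, a tenascin, had 0.0735, 0.0955, 0.11 and 0.121 in irradiated dual inhibition, against 0.135 and 1.94 in untreated lung.

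Gene lists by process or cell type were set beside these counts. The lists were chosen with earlier results of these data known, so that a list's count describes its members and is not a test of the process. Each count of irradiated dual inhibition against untreated is to be read beside the 12.1% of all genes that were higher and the 8.66% that were lower. Each count of genes whose arrays did not overlap is to be read beside 49.5% of all genes. For irradiated against unirradiated dual inhibition the shares of all genes were 7.52% higher and 6.73% lower. For unirradiated dual inhibition against untreated they were 2.16% and 0.843%, and for IR against untreated 7.31% and 6.89%. With normexp no list had more than 3 called members, the most being 3 adipose genes. Besides the normexp medians given with their lists, those relative to all genes were 0.52 for lipid-handling macrophages, 0.71 for complement, 0.55 for smooth muscle, -1.04 for cardiac muscle, -0.96 for skeletal muscle, -1.06 for adipose tissue, -0.55 for erythroid cells, -0.98 for neutrophils, 0.13 for AhR targets, 0.32 for cholesterol and fatty acid synthesis and 0.53 for senescence.

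**Figure D2:**
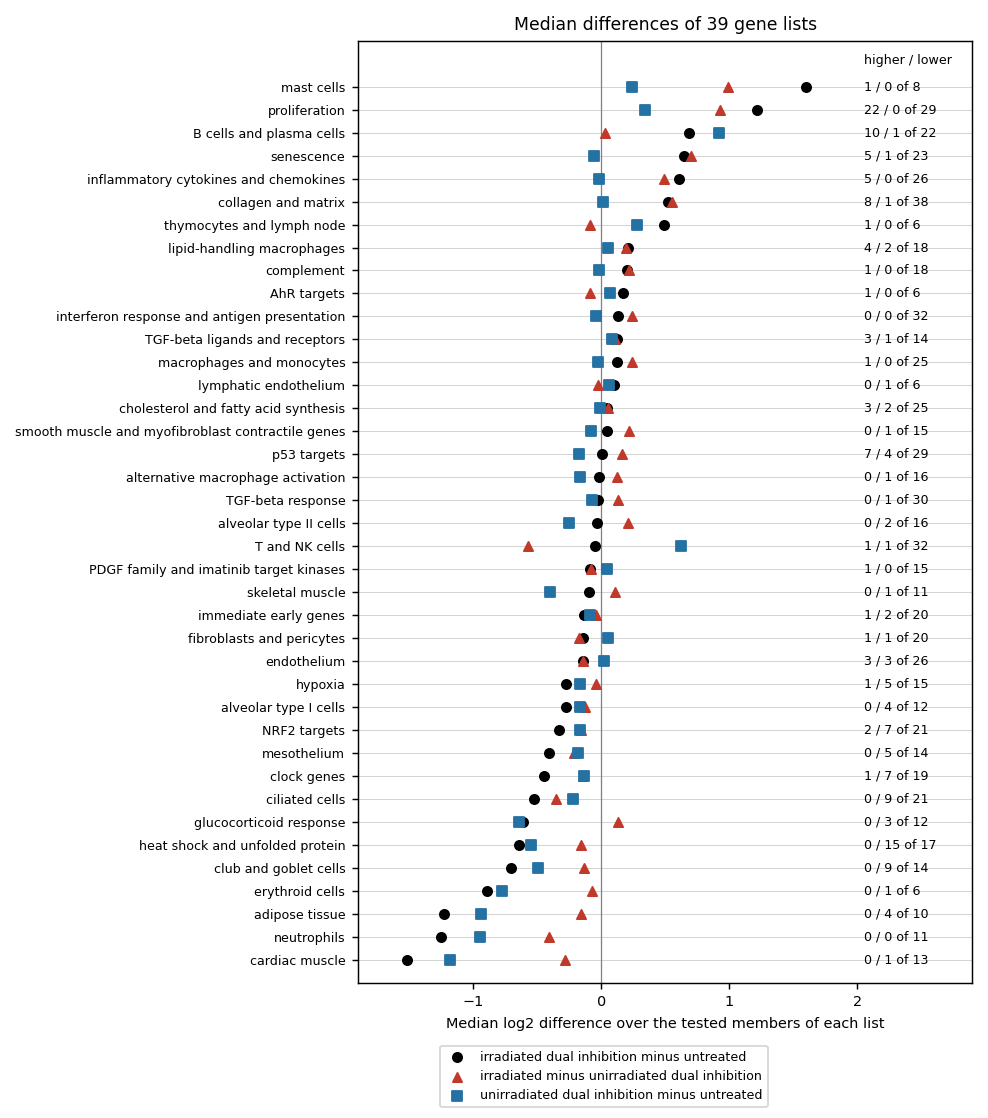
Median log2 difference of the tested members of each gene list in 3 comparisons, with the number of members higher and lower by limma printed beside the list. Proliferation had the highest share of higher members against untreated (22 of 29) and heat shock and unfolded protein the highest share of lower members (15 of 17).

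Cell cycle genes rose. Of 29 proliferation genes tested, 22 were higher in irradiated dual inhibition than in untreated lung and 0 lower (12.1% and 8.66% of all genes). Their median was 1.21, against 0.04 over all genes. On 27 of the 29 the arrays of both sides did not overlap, as on 49.5% of all genes. In unirradiated dual inhibition against untreated 0 of 29 passed (3.0% of all genes), with a median of 0.34 and 1 of them at an unadjusted p under 0.05 by limma. In irradiated against unirradiated dual inhibition 19 were higher and 0 lower (7.52% and 6.73% of all genes), with a median of 0.93. IR against untreated had 4 higher and 0 lower members (7.31% and 6.89% of all genes) at a median of 0.88, with IR 1 and IR 2 far apart. Fewer members passed without untreated 1 (11) and without untreated 2 (9), and without IR+Ly+Imatinib 1, the highest array for these genes, 21 passed. By drug pair, 23 passed in IR+Ly+Imatinib against untreated and 5 in IR+Ly+Su against untreated, and 10 passed with the 4 irradiated arrays as 1 group and 6 arrays in the fit. With normexp 1 passed and the median stood 0.60 above that of all genes. In whole lung a larger share of cycling cells and more RNA per cell cannot be told apart.

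Cdk1, the kinase that drives entry into mitosis, had 0.749, 0.315, 0.24 and 0.214 in irradiated dual inhibition, 0.138, 0.162, 0.146 and 0.135 in unirradiated dual inhibition, 0.516 and 0.159 in IR and 0.0412 and 0.0744 in untreated lung, where 1 of the 2 arrays was above background. The irradiated dual inhibition arrays lay above the unirradiated ones, and those above the untreated ones. The difference from untreated was 2.58 ± 0.43 (adjusted p = 0.00132), of which 1.39 ± 0.43 fell in the drug step (adjusted p = 0.0971) and 1.20 ± 0.35 between irradiated and unirradiated dual inhibition (adjusted p = 0.0359). Its partner Ccnb1, cyclin B1, had 0.271, 0.127, 0.123 and 0.0984 against 0.037 and 0.0388, a difference of 1.91 ± 0.42 (adjusted p = 0.00603). Aurkb, the kinase of the chromosomal passenger complex, was above background on no untreated array and at least 2.81-fold higher in irradiated dual inhibition. Cenpf, a kinetochore protein, had 0.908, 0.431, 0.349 and 0.325 against 0.11 and 0.105. Outside the list, Pimreg had 0.8, 0.369, 0.269 and 0.251 against 0.0621 and 0.0507 and the mitotic kinase Pbk 0.581, 0.246, 0.18 and 0.173 against 0.0662 and 0.0522. For Cdk1, Ccnb1, Aurkb, Cenpf, Pimreg and Pbk, IR+Ly+Imatinib 1 was the highest of the 4 irradiated arrays, and the lowest of the 4 was still above both untreated arrays. Aurkb and Ccnb1 turned to -1.09 and -0.43 with normexp. Cdk1, Cenpf, Pimreg and Pbk kept their sign there but shrank to 0.30, 0.41, 0.52 and 0.038, and were not called.

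**Figure D3:**
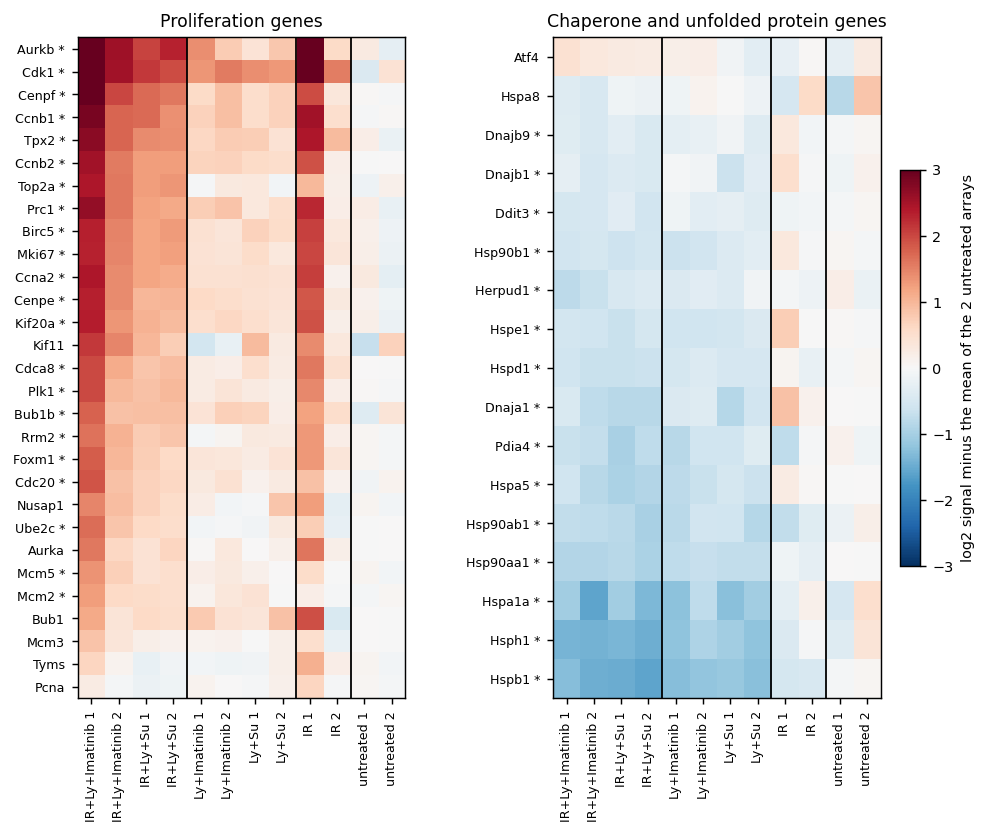
Log2 signal of each tested proliferation gene and each heat shock and unfolded protein gene on 12 arrays, centred on the mean of the 2 untreated arrays of that gene. Columns run from irradiated dual inhibition through unirradiated dual inhibition and IR to untreated, colours end at 3 log2 units in either direction, and stars mark genes called in irradiated dual inhibition against untreated, 22 in the left panel and 15 in the right.

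Promoters of these genes are shown because mitotic genes are known to share 2 elements, the CCAAT box and the cell cycle homology region, written TTTGAA. RefSeq promoters of GRCm38.p6 (the 250 bases before each start, either strand) were found for 24 of the 29 genes. TTTGAA was present in 9 of them (37.5%), against 14.03% of the 12652 tested genes with a promoter, CCAAT in 21 (87.5%), against 39.43%, and both in 9 (37.5%), against 5.122%. The 100 bases before the start are printed 5′ to 3′ on the gene's strand for Cdk1 (chr10:69352913-69353012, minus strand), Cdc20, an activator of the anaphase-promoting complex (chr4:118437344-118437443, minus strand), and Ube2c, its ubiquitin-conjugating enzyme (chr2:164769829-164769928, plus strand), with both motifs and their reverse complements in capitals.
Cdk1: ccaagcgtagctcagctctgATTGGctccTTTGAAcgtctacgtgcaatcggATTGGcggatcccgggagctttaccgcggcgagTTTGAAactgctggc
Cdc20: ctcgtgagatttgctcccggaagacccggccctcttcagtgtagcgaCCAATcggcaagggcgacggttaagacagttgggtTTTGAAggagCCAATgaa
Ube2c: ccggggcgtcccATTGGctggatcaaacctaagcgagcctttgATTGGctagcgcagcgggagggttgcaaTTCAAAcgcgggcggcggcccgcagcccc
These matches are letters in the sequence, not measured sites. The same 3 genes were all higher in irradiated dual inhibition than in untreated lung, Cdc20 by 1.02 ± 0.25 (adjusted p = 0.0129) and Ube2c by 0.91 ± 0.25 (adjusted p = 0.0223). Cdc20 and Ube2c were chosen for their promoters after their values were seen.

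p53 targets went both ways. Of 29 tested, 7 were higher and 4 lower than untreated (12.1% and 8.66% of all genes), with a median of 0.01, or 0.27 above all genes with normexp (3 and 0 without untreated 1, 3 and 4 without untreated 2, 7 and 1 without IR+Ly+Su 1, 5 and 2 without IR+Ly+Imatinib 1 or without IR+Ly+Su 2). Against unirradiated dual inhibition, 11 were higher and 1 lower (7.52% and 6.73% of all genes), with a median of 0.16. In IR against untreated 12 were higher and 0 lower (7.31% and 6.89% of all genes), with a median of 0.56. Gdf15, a stress-induced cytokine of the TGF-β superfamily, had 1.59, 2.56, 0.933 and 1.36 in irradiated dual inhibition, 0.291, 0.478, 0.409 and 0.507 in unirradiated dual inhibition, 3.52 and 2.99 in IR and 0.48 and 0.701 in untreated lung. The 4 irradiated dual inhibition arrays lay above all unirradiated ones and below both IR arrays, and the difference from untreated was 1.38 ± 0.26 (adjusted p = 0.00275). Eda2r, a receptor of the TNF receptor family, had 0.192, 0.198, 0.125 and 0.144 in irradiated dual inhibition, 0.374 and 0.211 in IR and 0.0681 and 0.0732 in untreated lung. Psrc1, a spindle-associated protein, had 1.56, 1.39, 0.613 and 0.969 against 0.369 and 0.339 and rose by 1.59 ± 0.28 (adjusted p = 0.00176). Ckap2, a mitotic cytoskeletal protein, was at least 4.65-fold higher. Gtse1, which shuttles to the spindle and restrains p53, was above background on the 4 irradiated arrays and on neither untreated one, where no bound above 1 could be given. For Eda2r, Ckap2 and Gtse1 normexp gave -0.68, -0.63 and -1.64.

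Cdkn1a, the cyclin-dependent kinase inhibitor p21, had 4.27, 3.69, 2.28 and 2.93 in irradiated dual inhibition, 0.79, 1.62, 1.87 and 1.44 in unirradiated dual inhibition, 9.5 and 5.5 in IR and 2.69 and 2.28 in untreated lung. Its irradiated dual inhibition arrays overlapped the untreated ones, and the difference of 0.37 ± 0.30 did not pass (adjusted p = 0.411). Against unirradiated dual inhibition it was 1.23 ± 0.25 higher (adjusted p = 0.00567), while unirradiated dual inhibition stood -0.86 ± 0.30 from untreated (adjusted p = 0.142). Of 23 senescence genes, 5 were higher and 1 lower, with a median of 0.64 (1 and 0 without untreated 1, 3 and 0 without untreated 2, and 3 and 1 without either IR+Ly+Su array). Cdkn2a, the p16 and p19ARF locus, was above background on 3 irradiated dual inhibition arrays and on no untreated one. Il1a, an alarmin cytokine of the same list, was at least 2.75-fold higher, with 0.0815, 0.109, 0.0677 and 0.0815 and 0.217 and 0.0981 in IR, and with normexp both turned lower (-1.50 and -1.05).

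**Figure D4:**
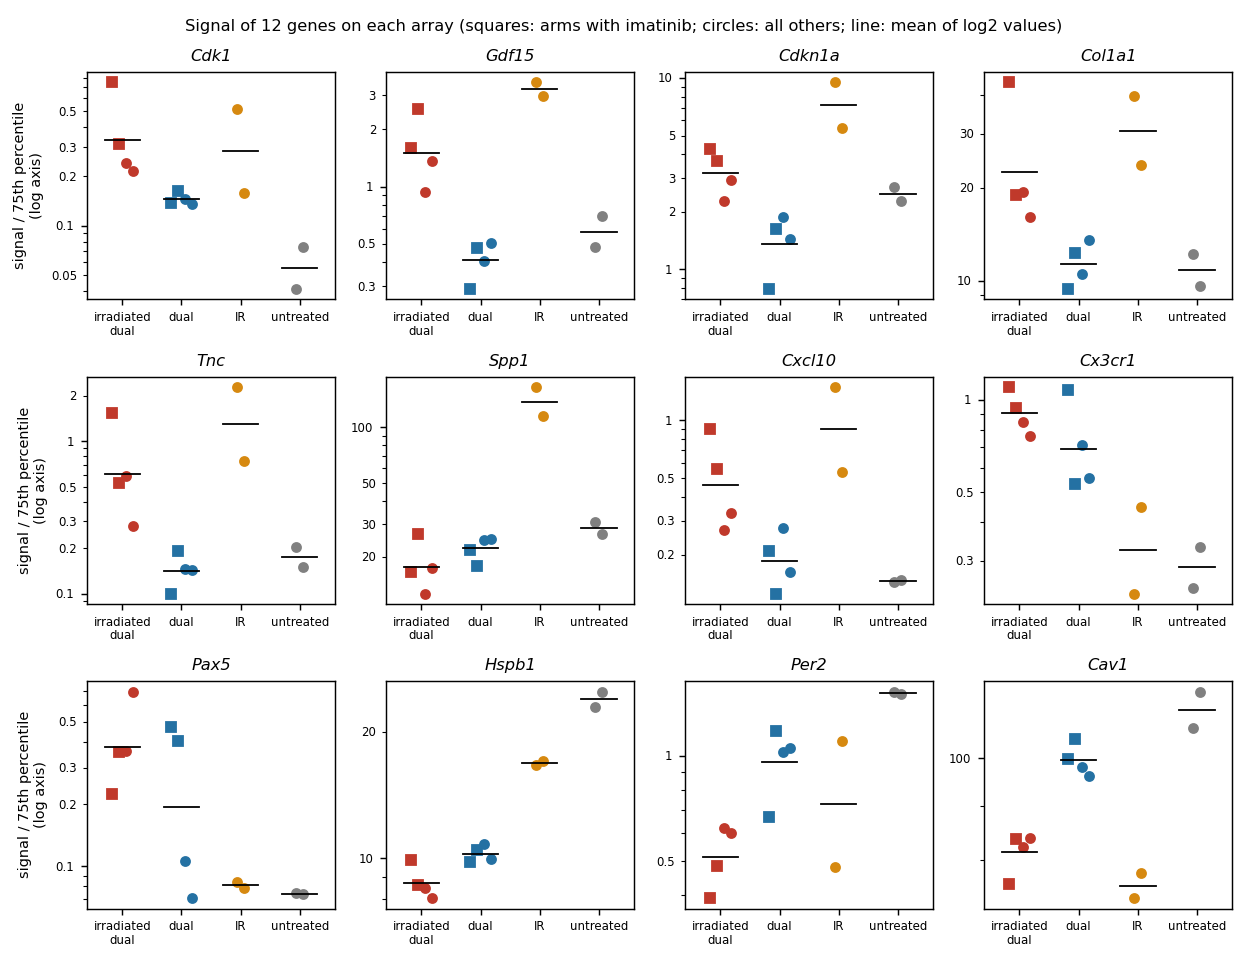
Signal of single genes on each array, relative to the array's 75th percentile, on a log axis. Columns run from irradiated dual inhibition (4 points) through unirradiated dual inhibition (4) and IR (2) to untreated (2), squares are arms with imatinib, and lines are means of log2 values. Gdf15 in irradiated dual inhibition lies between IR and untreated, and Hspb1 lies below untreated with and without irradiation.

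Counting both directions together, matrix genes were called at a share near the 20.7% of all genes, and most of those called were higher. Of 38 collagen and matrix genes, 8 were higher and 1 lower than untreated (12.1% and 8.66% of all genes), with a median of 0.52, or 0.88 above all genes with normexp. This count leaned on single arrays, with 2 and 0 without untreated 1, 4 and 0 without untreated 2, 4 and 1 without IR+Ly+Imatinib 1 or without IR+Ly+Su 1, and 16 and 0 without IR+Ly+Imatinib 2. Against unirradiated dual inhibition 12 were higher and 0 lower (7.52% and 6.73% of all genes), with a median of 0.55. Unirradiated dual inhibition itself had 0 called members by limma (3 at an unadjusted p under 0.05), where 3.0% of all genes were called, with a median of 0.01. Tnc, tenascin C, a matrix protein of injured tissue, had 1.53, 0.538, 0.593 and 0.28 in irradiated dual inhibition, 0.101, 0.19, 0.146 and 0.145 in unirradiated dual inhibition, 2.28 and 0.743 in IR and 0.204 and 0.15 in untreated lung. The irradiated dual inhibition arrays lay above both untreated ones, and the difference was 1.80 ± 0.54 (adjusted p = 0.0304). Col1a1, a chain of type I collagen, had 44.1, 18.9, 19.4 and 16.1 in irradiated dual inhibition, 39.6 and 23.7 in IR and 12.3 and 9.6 in untreated lung, a difference from untreated of 1.06 ± 0.33 (adjusted p = 0.0378). Its highest value, on IR+Ly+Imatinib 1, was over 2 times that of the other 3 irradiated dual inhibition arrays.

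Fn1, fibronectin, rose by 0.95 ± 0.32 (adjusted p = 0.0484), with 10.3, 4.95, 3.76 and 3.45 against 2.38 and 2.88. Cthrc1, a secreted protein of activated fibroblasts, had 0.391, 0.412, 0.296 and 0.3 against 0.154 and 0.133, and there both drug pairs were close. Thbs2, thrombospondin 2, was at least 3.48-fold higher, and with normexp Cthrc1 and Thbs2 turned to -0.083 and -0.86. Col3a1, a chain of type III collagen, had 46, 24, 21.7 and 20.2, against 18.9 and 13.3 in untreated lung, and did not pass (adjusted p = 0.122). Eln, elastin, had 15.5, 2.8, 2.39 and 1.53 against 1.53 and 1.57, with IR+Ly+Su 2 level with untreated, and did not pass (adjusted p = 0.178). Timp1, an inhibitor of matrix proteases, had 7.93, 3.1, 2.39 and 2.02 in irradiated dual inhibition, 28.9 and 7.71 in IR and 2 and 1.84 in untreated lung, and did not pass against untreated (adjusted p = 0.272). Spp1, osteopontin, which macrophages secrete in injured lung, fell below untreated, at 16.6, 26.5, 12.7 and 17.4, against 30.8 and 26.7 in untreated lung, a difference of -0.70 ± 0.23 (adjusted p = 0.0466), while IR had 164 and 114. The highest of the 4, on IR+Ly+Imatinib 2, was close to untreated 2. With 1 array left out the difference of Spp1 ran from -0.87 to -0.53. With normexp it was -0.36, near the median of all genes (-0.30), and was not called.

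Most genes of the 2 pathways in the series title did not pass against untreated. Of 30 TGF-β response genes, 0 were higher and 1 lower (12.1% and 8.66% of all genes), with a median of -0.03 (0.50 above all genes with normexp and 0.11 with quantile normalisation). Smurf2, a ubiquitin ligase that degrades SMADs and TGF-β receptors, was the lower one, at -0.48 ± 0.10 (adjusted p = 0.00391), and without IR 1 the list had 3 higher and 2 lower. Acta2, the smooth muscle actin of myofibroblasts, had 36.3, 20.7, 32.2 and 23.1 against 26.3 and 31.7, and the arrays overlapped (adjusted p = 0.834).

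Of 14 TGF-β ligands and receptors, 3 were higher and 1 lower (12.1% and 8.66% of all genes), with a median of 0.13, or 0.44 above all genes with normexp. Tgfb2, a TGF-β ligand, had 2.7, 2.41, 2.28 and 2.07 in irradiated dual inhibition, 1.46, 1.43, 1.4 and 1.77 in unirradiated dual inhibition, 1.54 and 1.8 in IR and 1.09 and 1.19 in untreated lung. All 4 irradiated dual inhibition arrays lay above every array of the other 3 sets, with a difference from untreated of 1.05 ± 0.12 (adjusted p = 0.000101). Itgb8, an integrin chain that activates latent TGF-β, was at least 1.88-fold higher, with 0.0518, 0.0552, 0.061 and 0.048, and turned to -1.21 with normexp. Tgfbr2 rose by 0.41 ± 0.12 (adjusted p = 0.0263), with 35.1, 30.8, 30.0 and 28.3 against 23.3 and 23.2. Smad4, the shared signal transducer, fell by 0.42 on the log2 scale (adjusted p = 0.00342). Tgfb1 and Tgfbr1 differed by 0.25 ± 0.17 and 0.16 ± 0.17 and did not pass (adjusted p = 0.322 and 0.53).

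Of 15 genes of the PDGF family and the kinases that imatinib inhibits, 1 was higher and 0 lower, with a median of -0.09 (0.41 above all genes with normexp and 0.13 with quantile normalisation). The higher one was Pdgfd, a ligand, at 1.29, 1.3, 1.27 and 1.05 against 0.474 and 0.879, a difference of 0.92 ± 0.22 (adjusted p = 0.0103), which was not called without untreated 1. The receptors Pdgfra and Pdgfrb had 2.17, 2.75, 2.68 and 2.68 against 3.07 and 2.61 and 14, 14.1, 13.1 and 14.3 against 16.2 and 15.5. The ligands Pdgfa and Pdgfb differed by -0.09 ± 0.10 and -0.30 ± 0.60, the stem cell factor receptor Kit by -0.33 ± 0.27 and the CSF-1 receptor Csf1r by 0.02 ± 0.18. None of these 6 genes passed (adjusted p between 0.293 and 0.962). For Pdgfb, 1 other probe was called in the opposite direction.

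A minority of inflammatory genes was higher than untreated. Of 26 cytokine and chemokine genes, 5 were higher than untreated and 0 lower (12.1% and 8.66% of all genes), with a median of 0.61 (-0.29 relative to all genes with normexp). IR against untreated had 20 higher and 0 lower (7.31% and 6.89% of all genes), with a median of 2.44. Irradiated dual inhibition against IR had 0 higher and 14 lower members (19.3% and 15.6% of all genes). The count against untreated was 0 without untreated 1 and 1 without untreated 2 (3 without IR+Ly+Imatinib 1 or without either IR+Ly+Su array), and 1 with quantile normalisation or with slide as a random block. Cxcl10, a chemokine that interferon induces and that draws T cells, had 0.898, 0.557, 0.269 and 0.33 in irradiated dual inhibition, 1.49 and 0.538 in IR and 0.145 and 0.148 in untreated lung. The irradiated dual inhibition arrays lay above the untreated ones, with a difference of 1.64 ± 0.43 (adjusted p = 0.0161). The related Cxcl9 had 0.318, 0.248, 0.12 and 0.255 against 0.0843 and 0.047. Il6, interleukin 6, was at least 1.59-fold higher and Cxcl5, a neutrophil chemokine, at least 2.19-fold, and normexp turned Cxcl9, Il6 and Cxcl5 to -0.068, -1.25 and -0.99. Of 32 interferon response genes, 0 passed against untreated in either direction by limma, with 3 at an unadjusted p under 0.05 and a median of 0.13, or 0.52 above all genes with normexp.

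Of 25 macrophage and monocyte genes 1 was higher (12.1% of all genes), with a median of 0.12 (0.61 above all genes with normexp), against 13 higher in IR against untreated (7.31% of all genes, list median 0.96). It was Cx3cr1, the fractalkine receptor, with 1.1, 0.94, 0.85 and 0.761 in irradiated dual inhibition, 1.08, 0.533, 0.714 and 0.555 in unirradiated dual inhibition, 0.235 and 0.448 in IR and 0.245 and 0.334 in untreated lung. It rose already with the drugs alone, by 1.27 ± 0.28 (adjusted p = 0.0294), and both dual inhibition sets lay above IR and untreated. Of 18 genes of lipid-handling macrophages, 4 were higher and 2 lower (12.1% and 8.66% of all genes), with a median of 0.21, against 12 and 0 in IR (7.31% and 6.89% of all genes, list median 1.05). That count was 1 and 1 without untreated 1, 1 and 0 without untreated 2, 2 and 1 without IR+Ly+Imatinib 1 and 3 and 1 without either IR+Ly+Su array. Gpnmb, a glycoprotein of lipid-laden macrophages, had 0.721, 0.69, 0.52 and 0.514 in irradiated dual inhibition, 3.06 and 1.74 in IR and 0.245 and 0.3 in untreated lung. Trem2, a lipid-sensing receptor, had 1.2, 0.905, 0.548 and 0.587, 2.22 and 2.64 and 0.326 and 0.379 in the same order. Both sat between IR and untreated on every array, 1.16 ± 0.28 and 1.13 ± 0.31 above untreated (adjusted p = 0.0117 and 0.0201). Mmp12, the macrophage elastase, was higher by 1.87 ± 0.36 with 1 of 2 untreated arrays above background, and the fatty acid carrier Fabp5 by 0.90 ± 0.29, also with 1 of 2. Both turned lower with normexp, at -0.72 and -1.18.

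Of 16 genes of alternative macrophage activation, 0 were higher and 1 lower, with a median of -0.02 (0.34 above all genes with normexp and 0.11 with quantile normalisation). The haemoglobin scavenger receptor Cd163 was the lower one, at 0.339, 0.157, 0.322 and 0.26 against 0.787 and 0.423 (adjusted p = 0.0285), and the list had 1 higher and 0 lower without untreated 1 and 0 of either without IR+Ly+Imatinib 2 or IR+Ly+Su 2. Of 18 complement genes 1 was higher (0 without untreated 2, 2 without either IR+Ly+Imatinib array), with a median of 0.20. It was Cfi, complement factor I, a protease that cleaves C3b, with 0.508, 0.528, 0.175 and 0.253 in irradiated dual inhibition, 1.46 and 0.852 in IR and 0.173 and 0.123 in untreated lung, and the IR+Ly+Imatinib arrays were higher than the IR+Ly+Su arrays. As levels of the cell type beside these lists, the macrophage markers Cd68 and Adgre1 spanned 1.85 to 3.39 and 2.73 to 4.96 in irradiated dual inhibition, against 1.39 to 1.73 and 3.04 to 3.09 in untreated lung. Their part in these differences was not tested.

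Heat shock genes fell. Of 17 heat shock and unfolded protein genes tested, 0 were higher and 15 lower (8.66% of all genes were lower), with a median of -0.64, and on 15 the arrays did not overlap, as on 49.5% of all genes. The drugs without irradiation had 7 lower members (0.843% of all genes), with a median of -0.55, irradiated against unirradiated dual inhibition had 0 in either direction by limma (6 at an unadjusted p under 0.05), with a median of -0.16, and IR against untreated had 2 lower, with a median of -0.07. Without untreated 1, 9 were lower, and without untreated 2, 10 were lower and 1 higher. With normexp 1 was lower, at a median of -0.06 relative to all genes. Hspb1, the small heat shock protein Hsp27, had 9.9, 8.62, 8.5 and 8.03 in irradiated dual inhibition, 9.78, 10.5, 10.8 and 9.95 in unirradiated dual inhibition, 16.6 and 17 in IR and 22.9 and 24.9 in untreated lung. The 8 dual inhibition arrays lay below all IR and untreated arrays, and irradiated dual inhibition differed from untreated by -1.45 ± 0.10 (adjusted p = 1.25e-06). Hsph1, a nucleotide exchange factor of Hsp70, had 6.53, 6.43, 6.59 and 6.2 against 13.1 and 22.3 and differed by -1.41 ± 0.18 (adjusted p = 0.000184). Hsp90aa1, the inducible Hsp90, had 46.8, 46.7, 48.5 and 44.3 against 87.1 and 84.8. Hspa1a, an inducible Hsp70 with a near-identical neighbour, had 2.4, 1.67, 2.42 and 1.97 against 3.51 and 7.08. In Hsph1 and Hspa1a the untreated arrays differed from each other more than the 4 irradiated dual inhibition arrays did, and the groups did not overlap.

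Of the 14 list genes with a RefSeq promoter, 2 (14.29%) held a heat shock element spelled GAANNTTCNNGAA on either strand, against 0.4505% of all, and they are Hspe1 and Hspd1, the chaperonin pair of mitochondria, which start from 1 divergent promoter and so share 1 site of 2 overlapping matches. CCAAT was in 11 of the 14 (78.57%), against 39.43% of all. The site is shown on the strand of Hspe1, GRCm38.p6 chr1:55088053-55088082, upstream of its start, with the letters of the element in capitals.
Hspe1: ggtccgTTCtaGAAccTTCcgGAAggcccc
Hspe1 and Hspd1, chosen for this site after their values were seen, were lower by 0.59 and 0.64 on the log2 scale in irradiated dual inhibition than in untreated lung (adjusted p = 0.0181 and 0.000882).

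Other stress lists had fewer called members. Of 12 glucocorticoid response genes, 0 were higher and 3 lower, with a median of -0.61 (-0.64 with the drugs alone, 0 and 2 called), and 1 was lower without untreated 1. With normexp the median was 0.01 relative to all genes. Tsc22d3, the glucocorticoid-induced leucine zipper, had 5.94, 5.73, 5.81 and 7.56 against 22.1 and 12.5, Klf9, a transcription factor, 3.55, 3.54, 4.22 and 4.3 against 7.81 and 7.25, and Errfi1, a feedback inhibitor of the EGF receptor, 10.9, 7.52, 7.78 and 7.91 against 17.1 and 11.6. In Tsc22d3 the untreated arrays differed from each other more than the irradiated dual inhibition arrays did. Of 21 NRF2 targets 2 were higher and 7 lower, with a median of -0.33 (0.28 above all genes with normexp), and the lower ones depended on single arrays (0 and 1 without untreated 1, 1 and 2 without untreated 2, 2 and 1 without IR+Ly+Imatinib 1 or IR+Ly+Su 1, 2 and 4 without IR+Ly+Su 2). Gsta1 and Gsta2, near-identical glutathione transferases, fell by 1.17 and 1.09, and Slc7a11, the cystine transporter, was above background on 3 irradiated dual inhibition arrays and on no untreated one, and at -1.70 with normexp. Of 15 hypoxia genes 1 was higher and 5 lower, with a median of -0.27, or 0.10 above all genes with normexp (0 and 1 without untreated 1 or without IR+Ly+Su 1, 0 and 4 without any other single array of the comparison). Adm, the vasodilator adrenomedullin, rose by 0.89 ± 0.27, and Pfkfb3 and Hk2, of glycolysis, and P4ha1, a collagen prolyl hydroxylase, fell by 0.64, 0.57 and 0.61. With 1 array left out the differences ran from -1.05 to -0.23 for Pfkfb3, -0.74 to -0.40 for Hk2 and -0.70 to -0.52 for P4ha1.

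B cell genes rose in part. Of 22 B and plasma cell genes, 10 were higher and 1 lower than untreated (12.1% and 8.66% of all genes), with a median of 0.69. With normexp 0 passed, and the median stood 0.74 above that of all genes. With the drugs alone 5 were higher (2.16% of all genes), with a median of 0.92, irradiated against unirradiated dual inhibition had 1 higher and 1 lower, with a median of 0.03, and IR against untreated had 0 and 1, with a median of -0.03. Without untreated 1 the count was 4 and 0, without untreated 2 it was 3 and 0, and without IR+Ly+Su 2 it was 6 and 1. Pax5, the transcription factor of the B lineage, had 0.224, 0.355, 0.362 and 0.699 in irradiated dual inhibition, 0.473, 0.402, 0.107 and 0.0702 in unirradiated dual inhibition, 0.084 and 0.0786 in IR and 0.0741 and 0.0732 in untreated lung. Irradiated dual inhibition lay above untreated on every array, by 2.35 ± 0.27 (adjusted p = 0.000109), while the Ly+Su arrays overlapped the untreated range and the Ly+Imatinib arrays did not. Cd22, an inhibitory receptor of B cells, had 0.953, 1.22, 1.34 and 1.92 in irradiated dual inhibition, 1.54, 1.13, 1.16 and 0.829 in unirradiated dual inhibition, 0.347 and 0.571 in IR and 0.537 and 0.582 in untreated lung. Fcer2a, the low-affinity IgE receptor, rose by 1.41 ± 0.28 and Cd79a, of the B cell receptor, by 1.55 ± 0.31 with 1 of 2 untreated arrays above background (-0.82 with normexp). Of the defining markers, Ms4a1 spanned 2.91 to 8.72 in irradiated dual inhibition, against 2.09 to 2.38 in untreated lung.

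Of 32 T and NK cell genes 1 was higher and 1 lower than untreated, with a median of -0.05 (0.04 above all genes with normexp), and against unirradiated dual inhibition 0 were higher and 11 lower (7.52% and 6.73% of all genes), with a median of -0.57. Eomes, a transcription factor of NK and effector T cells, was at least 1.93-fold higher (-1.33 with normexp), and Tcf7, of naive T cells, fell by 0.43 on the log2 scale, with 0.72, 0.668, 0.768 and 1.01 against 0.984 and 1.13. Neither was called without untreated 1, untreated 2 or IR+Ly+Imatinib 2 left out in turn, and the list had 0 higher and 2 lower without IR+Ly+Su 2. Among 8 mast cell genes Cpa3, above, was the 1 that passed, and the median was 1.60 (0.23 above all genes with normexp). The number higher was 0 without untreated 1, untreated 2 or IR+Ly+Su 2, 3 without IR+Ly+Imatinib 1 and 4 without IR 1. The mast cell protease Cma1 spanned 0.343 to 2.51 in irradiated dual inhibition, against 0.166 to 0.241 in untreated lung, and the mean log2 level of the list was -2.30, -0.49, -2.49 and -1.34 in irradiated dual inhibition, against -3.0 and -2.99 in untreated lung. Of 11 neutrophil genes 0 passed in either direction by limma (1 at an unadjusted p under 0.05), with a median of -1.25, and the neutrophil protein S100a8 spanned 1.83 to 3.58 in irradiated dual inhibition, against 5.26 to 12.2 in untreated lung. Of 6 thymocyte and lymph node genes 1 was higher (0 without untreated 1), with a median of 0.49 (0.04 above all genes with normexp). It was Dntt, terminal transferase, with 0.16, 0.149, 0.172 and 0.143, 0.194, 0.151, 0.172 and 0.165 with the drugs alone and 0.065 and 0.0901 in untreated lung, and -0.69 with normexp.

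Epithelial genes were lower in part. Of 14 club and goblet cell genes, 0 were higher and 9 lower (12.1% and 8.66% of all genes), with a median of -0.70, and on 13 the arrays did not overlap, as on 49.5% of all genes. With normexp 0 were lower, at a median of -0.05 relative to all genes, and with quantile normalisation 3 were lower. The number lower was 4 without untreated 1, 2 without untreated 2, 4 without IR+Ly+Imatinib 1 and 6 without IR+Ly+Su 1. Lypd2, a surface protein of secretory cells, had 2.15, 2.72, 3.98 and 3.4 in irradiated dual inhibition, 3.3, 4.89, 5.88 and 5.63 in unirradiated dual inhibition, 1.74 and 3.55 in IR and 6.94 and 6.19 in untreated lung. Scgb3a2, a secretoglobin, had 102, 157, 183 and 194 against 262 and 327, and differed by -0.93 ± 0.25 (adjusted p = 0.0203). Hp, the haemoglobin binder haptoglobin, had 145, 148, 159 and 151 against 217 and 286. In Lypd2 and Scgb3a2 IR+Ly+Imatinib 1 was the lowest of the irradiated dual inhibition arrays and all 4 lay below untreated.

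Of 21 ciliated cell genes 0 were higher and 9 lower (12.1% and 8.66% of all genes), with a median of -0.53 (0 lower without untreated 1, 6 without untreated 2 and 14 without IR+Ly+Imatinib 2). With normexp 0 were lower, at a median of -0.13 relative to all genes. Against unirradiated dual inhibition 7 were lower (6.73% of all genes). Tppp3, a tubulin-binding protein, had 15.5, 23.7, 25.4 and 25.4 in irradiated dual inhibition, 33.9, 37.2, 37.8 and 33.7 in unirradiated dual inhibition and 39.2 and 36.8 in untreated lung. The difference lay between irradiated and unirradiated dual inhibition, at -0.69 ± 0.17 (adjusted p = 0.0174), against -0.09 ± 0.21 with the drugs alone (adjusted p = 0.883). Fam183b, of cilia, and Dnali1, a dynein chain, fell by 0.81 and 0.94 against untreated.

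Of 12 alveolar type I cell genes 0 were higher and 4 lower, with a median of -0.27 (0.32 above all genes with normexp), and 2 were lower without untreated 1, without untreated 2 or with quantile normalisation. Aqp5, the water channel of type I cells, had 61, 55.3, 59.8 and 58.6 against 76.2 and 82.9 and differed by -0.44 ± 0.10 (adjusted p = 0.00598). Cav1, caveolin, had 75.8, 83.7, 82.2 and 83.9 against 107 and 116, Rtkn2 3.51, 4.17, 4.18 and 5.08 against 7.64 and 6.24, and Igfbp6, a binder of insulin-like growth factors, 5.96, 7.48, 8.84 and 9.66 against 17.9 and 15.3. Of 16 type II cell genes 0 were higher and 2 lower, with a median of -0.04 (0.50 above all genes with normexp and 0.20 with quantile normalisation). They were Sftpc, surfactant protein C, with 424, 433, 489 and 435 against 555 and 921, and Nkx2-1, the lung transcription factor, with 2.46, 2.08, 2.21 and 2.35 against 2.86 and 2.8, and 0 were lower without untreated 2 or any array of the irradiated dual inhibition groups but IR+Ly+Imatinib 1. Without IR+Ly+Imatinib 2 the direction turned, to 2 higher and 0 lower, and with quantile normalisation to 1 higher and 0 lower. Of 14 mesothelial genes 0 were higher and 5 lower, with a median of -0.41, or 0.05 above all genes with normexp (2 lower without untreated 1, 3 without untreated 2, IR+Ly+Imatinib 2 or either IR+Ly+Su array). The keratins Krt8, Krt18 and Krt19, which lung epithelium also expresses, fell by 0.58, 0.65 and 0.56, and the mucin Muc16 by 0.91.

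Of 26 endothelial genes 3 were higher and 3 lower, with a median of -0.14 (0.44 above all genes with normexp, 0.05 with quantile normalisation). The count was 1 and 1 without untreated 1, 2 and 1 without untreated 2, 2 and 2 without IR+Ly+Su 1 and 3 and 1 without IR+Ly+Su 2. Kdr, the VEGF receptor, had 15.5, 18.4, 18.4 and 16.9 in irradiated dual inhibition, 13, 14.3, 12.6 and 13.6 in unirradiated dual inhibition, 8.27 and 10.7 in IR and 10.4 and 11.7 in untreated lung, and rose by 0.65 ± 0.14 (adjusted p = 0.00612). Emcn, a sialomucin of veins and capillaries, rose by 0.64 ± 0.14. Ramp2, of the adrenomedullin receptor, had 57.2, 57.1, 69.7 and 65.3 against 108 and 111, and Gpihbp1, which anchors lipoprotein lipase, 24, 18.4, 22.9 and 19.8 against 35.4 and 31.6. Kdr and Emcn thus lay above untreated, and Ramp2 and Gpihbp1 below, on all 4 irradiated dual inhibition arrays. Of 6 lymphatic endothelial genes Lyve1, the hyaluronan receptor, was the 1 lower gene, with 7.87, 4.7, 6.92 and 6.04 against 17.7 and 14, and the list's median was 0.10 (-0.24 relative to all genes with normexp, -0.11 with quantile normalisation).

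Of 20 fibroblast and pericyte genes 1 was higher and 1 lower, with a median of -0.14 (0.40 above all genes with normexp), and 0 of either without untreated 2, IR+Ly+Imatinib 1 or either IR+Ly+Su array. Mfap5, a microfibril glycoprotein, had 3.35, 1.27, 1.07 and 0.857 against 0.723 and 0.622 and rose by 1.07 ± 0.34 (adjusted p = 0.0393), and Pi16, of adventitial fibroblasts, had 1.01, 1.38, 2.51 and 1.87 against 3.38 and 2.89. Of 15 contractile genes of smooth muscle and myofibroblasts 1 was lower, Tpm2, a tropomyosin, at 3.73, 7.46, 10.9 and 8.39 against 12.4 and 12.4, with a list median of 0.05, and without untreated 2 or with quantile normalisation 1 was higher and 0 lower.

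Genes of heart and fat, which border the lung, varied between arrays. Of 13 cardiac muscle genes 0 were higher and 1 lower, with a median of -1.52 (0 lower without untreated 1, 4 without IR+Ly+Imatinib 2 and 3 without IR 1), and the heart markers Myl7 and Myh6 spanned 1.40 to 11.4 and 0.365 to 2.72 in irradiated dual inhibition, against 19.0 to 19.1 and 2.72 to 5.29 in untreated lung. The mean log2 level of the list was -2.20, -0.21, 0.42 and 0.81 in irradiated dual inhibition, -1.89, 0.25, 0.019 and 1.63 in unirradiated dual inhibition and 1.13 and 1.49 in untreated lung. Nppa belongs to this list, and the part of heart tissue in its fall was not tested. Of 11 skeletal muscle genes Mylpf, a myosin light chain, was the 1 lower gene (-0.51 ± 0.13, not called without untreated 1), with a list median of -0.10, and Tcap, a sarcomere protein outside these lists, had 0.405, 2.13, 3.22 and 5.02 against 8.58 and 8.15. Of 10 adipose genes 0 were higher and 4 lower, with a median of -1.23 (1 lower without untreated 1, untreated 2 or IR+Ly+Su 1, and 3 without any of the other irradiated dual inhibition arrays). Adipoq, adiponectin, had 0.0841, 0.0532, 0.431 and 0.553 in irradiated dual inhibition, 0.0259, 0.247, 0.477 and 0.62 in unirradiated dual inhibition and 0.791 and 0.689 in untreated lung, and Car3, a carbonic anhydrase of fat and muscle, and Cidec and Plin1, lipid droplet proteins, also fell. On IR+Ly+Imatinib 1 and 2 Adipoq, Car3 and Plin1 were lower than on either IR+Ly+Su array. Of 6 erythroid genes 1 was lower (0 without untreated 2), with a median of -0.89, Hbb-bt, a beta globin with a near-identical neighbour, at 251, 329, 371 and 264 against 527 and 602.

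Clock genes fell in part. Of 19 clock genes 1 was higher and 7 lower (12.1% and 8.66% of all genes), with a median of -0.45 (-0.35 relative to all genes with normexp, 0 higher and 1 lower), and with the drugs alone 0 passed by limma in either direction (6 at an unadjusted p under 0.05), with a median of -0.14. IR against untreated had 1 higher and 7 lower (median -0.67). The count was 0 and 3 without untreated 1 and 0 and 5 without untreated 2. Per2, a repressor of the clock, had 0.391, 0.483, 0.622 and 0.6 in irradiated dual inhibition, 0.67, 1.18, 1.03 and 1.06 in unirradiated dual inhibition, 0.481 and 1.1 in IR and 1.53 and 1.51 in untreated lung. Dbp, a clock output factor, had 15.5, 20.8, 25.7 and 33.7 in irradiated dual inhibition, 44.3, 62.8, 55.6 and 73.4 in unirradiated dual inhibition, 13.7 and 53.9 in IR and 60.5 and 47.5 in untreated lung. The irradiated dual inhibition arrays of both genes lay below all unirradiated ones, and they differed from untreated by -1.56 ± 0.28 and -1.22 ± 0.40 (adjusted p = 0.00208 and 0.0442). Hlf, a factor related to Dbp, fell by 1.18, and Npas2, a partner of Bmal1, was at least 1.46-fold higher (-1.54 with normexp). Of 16 clock genes with a promoter 5 (31.25%) held the E-box CACGTG, against 8.908% of all, 1 (6.25%) the D-box TTATGCAA, against 0.7904%, and 11 (68.75%) held CCAAT, against 39.43%. The labels do not give the hour of the day at which lungs were taken, and clock genes are known to vary with it.

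Of 20 immediate early genes 1 was higher and 2 lower, with a median of -0.14, or 0.12 above all genes with normexp (1 and 0 without untreated 1, 1 and 1 without untreated 2 or any irradiated dual inhibition array but IR+Ly+Su 1). Spry4, a feedback inhibitor of receptor kinase signalling, was at least 4.71-fold higher, with 0.188, 0.136, 0.109 and 0.117 in irradiated dual inhibition, 0.0266, 0.0322, 0.0272 and 0.0217 in unirradiated dual inhibition and 0.086 and 0.0353 in IR, and all 4 irradiated dual inhibition arrays lay above the others. Normexp turned it to -0.46. The nuclear receptor Nr4a2 and the AP-1 subunit Jun fell by 0.68 and 0.39. Of 6 AhR targets 1 was higher, with a median of 0.17. It was Ahrr, the receptor's repressor, at least 1.23-fold higher (-1.59 with normexp), while Cyp1a1, the classic target, had 0.526, 0.8, 0.229 and 0.238 in irradiated dual inhibition, 0.703, 0.831, 0.722 and 0.983 in unirradiated dual inhibition, 0.0397 and 0.0781 in IR and 0.173 and 0.0924 in untreated lung, and passed with the drugs alone (2.66 ± 0.57, adjusted p = 0.0257) but not in irradiated dual inhibition (1.62 ± 0.57, adjusted p = 0.0597). Of 25 genes of cholesterol and fatty acid synthesis 3 were higher and 2 lower, with a median of 0.05 (1 and 0 without untreated 1, 1 and 1 without IR+Ly+Su 1, and 1 and 2 without untreated 2, IR+Ly+Imatinib 1 or IR+Ly+Su 2). Hmgcs1 and Cyp51, enzymes of cholesterol synthesis, rose by 0.75 ± 0.24 and 0.53 ± 0.16, and turned to -0.97 and -0.055 with normexp.

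The 2 drug pairs were not distinguished gene by gene. In IR+Ly+Su against IR+Ly+Imatinib, which lay on 1 slide, limma called 0 of 20409 genes, with 1078 at an unadjusted p under 0.05 and a lowest adjusted p of 0.366. The smallest p-values belonged to Fam167b, Plin1, Tmem45b, Chil6 and Ipw. Plin1, perilipin of fat droplets, had 0.194 and 0.233 on the IR+Ly+Su arrays, against 0.0494 and 0.0551 on the IR+Ly+Imatinib arrays, and Tmem45b, a membrane protein, 0.0346 and 0.0435 on the IR+Ly+Su arrays, against 0.0052 and 0.00535 on the IR+Ly+Imatinib arrays, and Tmem45b was above background on both IR+Ly+Su arrays and on neither IR+Ly+Imatinib array. The differences of Plin1 and Fam167b were 2.03 ± 0.43 and -1.72 ± 0.37, IR+Ly+Su minus IR+Ly+Imatinib (adjusted p = 0.86 and 0.86). Without IR+Ly+Imatinib 2 the count was 432, which rested on IR+Ly+Imatinib 1 alone for that pair, without IR+Ly+Imatinib 1 it was 9, and without either IR+Ly+Su array it was 1.

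Fewer list members were called for IR+Ly+Su than for IR+Ly+Imatinib against untreated in several lists, while between the pairs themselves 0 genes passed. The same held over all 20409 genes, with 1450 higher and 731 lower in IR+Ly+Su, and 2052 and 1574 in IR+Ly+Imatinib. The list counts are to be read beside these and do not show a difference between the pairs. Collagen and matrix had 3 higher and 0 lower in IR+Ly+Su and 13 and 0 in IR+Ly+Imatinib, club and goblet cells 2 and 9 lower, ciliated cells 3 and 12 lower and clock genes 2 and 7 lower. Heat shock genes were close, with 12 lower in IR+Ly+Su and 14 in IR+Ly+Imatinib. B and plasma cell genes ran the other way, with 11 higher in IR+Ly+Su and 3 in IR+Ly+Imatinib.

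Irradiated dual inhibition also stood apart from irradiation without drug. Against IR, 3935 genes were higher and 3184 lower (34.9% of those tested, 19.3% and 15.6%), and 2275 in all were called without IR 1 and 4583 without IR+Ly+Su 1. This comparison shares the irradiated dual inhibition arrays with the one against untreated, so that values are given side by side only. Spp1 was -2.96 ± 0.23 from IR and -0.70 ± 0.23 from untreated, Gpnmb -1.93 ± 0.28 from IR and 1.16 ± 0.28 from untreated, Gdf15 -1.11 ± 0.26 from IR and 1.38 ± 0.26 from untreated, and Tgfb2 0.50 ± 0.12 from IR and 1.05 ± 0.12 from untreated, all 4 passing against both. In the lists against IR, 18 p53 targets were lower and 1 higher (median -0.53), 15 macrophage genes were lower and 1 higher (median -0.81), 13 heat shock genes were lower and 1 higher (median -0.64), 3 proliferation genes were higher and 0 lower (median 0.38), and 14 B cell genes were higher and 1 lower (median 1.02).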

How the data were processed

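RNA of whole mouse lung was measured on 24 one-colour arrays, 12 groups of 2, and per the labels' protocols total RNA was extracted with TRIzol, amplified linearly and labelled with Cy3. The deposited array files hold intensity values from Agilent Feature Extraction 9.1.3.1, per the file headers already background-subtracted, with no scaling between arrays. The value table of the series, also deposited, matched these intensity values up to 1 factor for all probes (ratios of 0.995 to 1.005 once it was divided out), so that it is neither log-transformed nor centred, and why that factor was applied is unknown.

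From these, spots of a probe were averaged, 619 of 41174 probes marked unusable were dropped, and the log2 of the deposited intensity minus the log2 of the array's 75th percentile was analysed. Each of 27401 genes took its probe with the highest mean; names came from RefSeq by accession (22550 probes), symbol (6572) or synonym (3068), else from the file (8365). A gene was tested when well above background on both arrays of at least 1 group (20409 genes, 15965 with a symbol). Arrays give no counts, so their number limits the precision; the share of spots well above background ran from 62.0% to 78.5%.

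limma 3.58.1 in R 4.3.3 fitted 12 group means to all 24 arrays (12 residual and 2.08 prior degrees of freedom), with two-sided p-values adjusted by Benjamini-Hochberg and called at 0.05. An irradiated dual inhibition value is the mean of IR+Ly+Imatinib and IR+Ly+Su. Where 1 side was not above background on any array, the fold is a bound against, per array, the higher of the lowest signal well above background and the probe's own. Replicate numbers were not taken to pair arrays: over 66 pairs of groups, same-numbered deviations correlated at a median of 0.036 (-0.202 to 0.250), 20 over 0.1. Tested on simulated data for the comparison with untreated (20409 genes), the fit recovered 57 of 100 genes changed by 1 log2 unit and 91 of 100 changed by 2, with 11 false calls. The simulated noise was independent between arrays and held no slide effect. These numbers therefore cannot show how many calls in the real comparison, where slide and group coincide, are false.

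Members, comparisons, 39 gene lists and the naming rule were chosen with earlier results of these data known. Among genes with a symbol that passed and whose arrays did not overlap, the rule names the 12 highest and 12 lowest above background on all 6 arrays (868 and 1546 eligible), the 6 highest and 6 lowest bounds (277 and 0 eligible), as many as 4 called members of each list, by size, the 5 smallest p between the drug pairs and a fixed panel of matrix, p53, TGF-β and PDGF genes; olfactory, vomeronasal and predicted genes were left out of it. Markers given only as ranges, and Cdc20, Ube2c, Hspe1 and Hspd1, were chosen after their values were seen. Some genes that the rule names are not reported here. Promoters came from RefSeq tables of GRCm38.p6. Alternatives were quantile normalisation, normexp background correction (offset 50), the series table, other filters on dim probes, every probe, other sets of groups in the fit, slide as a random block, the replicate number as a block, each drug pair alone and each array left out in turn.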

Additional observations from a re-analysis of the deposited data

Results flagged for a closer look

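Among the 4 irradiated dual inhibition arrays, which pool 2 drug pairs, 1 array stood far from the other 3 in 12 named genes by Dixon's ratio (the gap to the nearest array over the range of the 4). Chance flags about 1 in 20 groups, and the rule named 143 genes, so that several such flags can arise by chance. IR+Ly+Imatinib 1 was the lowest array for Cyp2a4 (ratio 0.844), Fam183b (0.871), Gsta1 (0.908), Gsta2 (0.843), Pdgfb (0.901), Pdgfra (0.888) and Tppp3 (0.862), and the highest for Errfi1 (0.865). This array also had 330 outlier spots, and its part in these values was not tested. IR+Ly+Imatinib 2 was the highest for Ahrr (0.841) and IR+Ly+Su 1 for Map3k6 (0.854). IR+Ly+Su 2 was the highest for Tsc22d3 (0.873) and the lowest for Pdgfd (0.883).

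Ipw, an imprinted RNA of the Prader-Willi region, differed in direction between the drug pairs: both IR+Ly+Su arrays lay above both untreated arrays and both IR+Ly+Imatinib arrays below them, a difference between the pairs of 4.07 on the log2 scale. Of these 6 arrays it was above background on the 2 IR+Ly+Su arrays alone, and the difference did not pass in limma.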

How the results depend on the processing

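The count of called genes depended on the processing in each comparison with calls. In irradiated dual inhibition against untreated, 4228 were called, 58.2% of them higher, against 2813 with quantile normalisation, 215 with normexp (47.0% higher), 2148 with slide as a random block, 2181 with IR+Ly+Su alone and 7036 with no filter (36.9% higher), and the share higher was 42.6% and 44.4% with genes above background on all 24 or all compared arrays (3073 and 3161 called). Leaving out 1 array gave 1626 to 5694. In unirradiated dual inhibition against untreated, 612 were called (71.9% higher), against 0 with normexp (556 at an unadjusted p under 0.05), 364 with no filter, 279 and 298 with the same 2 filters (55.9% and 58.7% higher), 257 with the compared groups alone in the fit and 127 with the slide block, and 184 to 1224 with 1 array left out; quantile normalisation turned the share higher to 59.7%. In irradiated against unirradiated dual inhibition, 2908 were called, against 269 with normexp, 6322 with no filter (29.1% higher, against 52.8%), 2398 and 2380 with the 2 stricter filters (39.7% and 41.8% higher) and 680 with the slide block, and 1239 to 4375 with 1 array left out. In irradiated dual inhibition against IR, 7119 were called (55.3% higher), against 589 with normexp (32.1% higher), 5683 with genes above background on all 24 arrays (43.5% higher), 1008 with the compared groups alone, 3689 with the slide block and 3960 with IR+Ly+Imatinib alone, and 2275 to 10364 with 1 array left out. Between the drug pairs, 0 became 62 with no filter and 1 with every probe, and 0 to 432 with 1 array left out. With the replicate number as a block, which the arrays do not support as a pairing, the counts were 4356, 674, 3098 and 7547, and 0 between the drug pairs.

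Of the 128 named genes called against untreated, 44 kept the call whichever array was left out. With normexp 80 lost the call while keeping their sign. A further 31 changed sign and were not called in the new direction either. Fewer samples in the fit lower the power of the calls with an array left out; otherwise the cause was not tested. With normexp 36 named genes changed sign against untreated: Acta2 (0.29), Ahrr (-1.59), Ankrd34b (-0.98), Aurkb (-1.09), Ccnb1 (-0.43), Cd79a (-0.82), Cdkn2a (-1.50), Chil6 (-1.78), Ckap2 (-0.63), Cthrc1 (-0.083), Cxcl5 (-0.99), Cxcl9 (-0.068), Cyp51 (-0.055), Dlk1 (-0.43), Dntt (-0.69), Eda2r (-0.68), Eomes (-1.33), Fabp5 (-1.18), Gdf6 (-0.86), Gtse1 (-1.64), Hmgcs1 (-0.97), Hpgds (-0.83), Il1a (-1.05), Il6 (-1.25), Ipw (-1.55), Itgb8 (-1.21), Mmp12 (-0.72), Npas2 (-1.54), Pate5 (-0.86), Pdgfa (0.20), Pdgfra (0.083), Pdgfrb (0.16), Slc5a10 (-0.28), Slc7a11 (-1.70), Spry4 (-0.46) and Thbs2 (-0.86). Genes that were not called changed sign elsewhere: Acta2 0.14 with quantile normalisation, 0.058 without untreated 2, 0.13 without IR+Ly+Imatinib 2, 0.043 without IR+Ly+Su 2; Csf1r -0.15 without untreated 1, -0.0071 without IR+Ly+Imatinib 1, -0.013 without IR+Ly+Su 1 (the range with 1 array left out was -0.15 to 0.18); Pdgfa 0.16 with quantile normalisation; Pdgfb 0.22 without untreated 2, 0.45 without IR+Ly+Imatinib 1, 0.38 with IR+Ly+Su alone. Ipw changed sign with IR+Ly+Imatinib alone (-1.01). Dim genes, near background on the untreated arrays, set the limit of what signal over background can show here, and slide and group cannot be told apart outside the comparison of the drug pairs.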

Other observations

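Tfap2e, Foxq1 and Tfam shared their lowest irradiated dual inhibition array, IR+Ly+Su 2, which was seen after their values were known. Their levels in IR 1 and IR 2 also differed alike, at 1.03 and 4.31 for Tfap2e, 0.121 and 0.505 for Foxq1 and 3.36 and 9.64 for Tfam, with IR 2 higher in each. The 2 other probes of Tfam did not show its difference, at 0.13 each (lowest adjusted p = 0.377).

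Of 32 T and NK cell genes, 0 were higher and 11 lower in irradiated than in unirradiated lung given the same drugs (7.52% and 6.73% of all genes). Their median was -0.57 in irradiated against unirradiated dual inhibition and 0.63 in unirradiated dual inhibition against untreated (0 called by limma in either direction, 17 at an unadjusted p under 0.05). The mean log2 level of the list was -1.56, -1.21, -1.31 and -0.61 in irradiated dual inhibition, -0.59, -1.04, -0.35 and -0.69 in unirradiated dual inhibition, -1.40 and -1.44 in IR and -1.21 and -1.29 in untreated lung. The B and plasma cell list had -0.36, 0.28, 0.063 and 0.77 in irradiated dual inhibition, 0.46, 0.21, 0.036 and 0.092 in unirradiated dual inhibition, -0.58 and -0.54 in IR and -0.44 and -0.66 in untreated lung, and all 8 dual inhibition arrays lay above both untreated ones.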
